A study of Mus musculus with 7 samples.

Results

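The 8 genes described here encode killer cell lectin-like receptors and their C-type lectin partners: the receptors Klrb1f, Klrb1c, Klrg1, Klrd1, Klrk1 and Klrc1, and the CLEC2 genes Clec2d and Clec2i. They were picked by symbol from 19736 gene symbols measured in lung regulatory T (Treg) cells, with the difference between CCR6+ and CCR6- cells already known. Their levels and differences in that contrast are therefore given as a description, with no test. All 8 passed the filter on low values, set at a normalised read count of 10 or more in 3 or more libraries.

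The cells were sorted by flow cytometry from digested whole lung of female mice aged 5 to 7 weeks. One group held 3 libraries of CCR6+ Foxp3-EGFP+ cells and the other held 4 libraries of CCR6- Foxp3-EGFP+ cells. Both groups carried the Il4raR576 allele of the interleukin-4 receptor alpha chain and the Foxp3EGFP reporter, and both came from mice given ovalbumin by injection at a dose of 100 µg, again 2 weeks later, and as a 1% aerosol for 30 minutes a day on 3 days from day 29, before they were killed on day 32. No group without the allele or without ovalbumin was analysed here, and the strain was not given. The labels do not tell whether libraries came from separate mice. The p-values below therefore only set the difference between the groups against the scatter of these libraries, a scatter that may be technical.

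Most of these receptors are best known from natural killer (NK) cells, where a balance of activating and inhibitory lectin receptors decides whether a target cell is attacked. Receptors of the NKR-P1 branch (the Klrb1 genes) bind ligands of the CLEC2 branch that are encoded among them in the same gene cluster, the natural killer gene complex of mouse chromosome 6. On T cells several of them mark effector or tissue-resident states, and KLRG1 marks a terminally differentiated subset of Treg cells.

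The close relatedness of these genes bears on what a short read can tell, so stretches shared by the coding sequences of 3 pairs are shown first. All come from GENCODE mouse release M21 on mm10 and are written in the direction of transcription, with the shared run in capitals and 20 bases on either side where the coding sequence goes on, and the positions given are those of the whole stretch as printed. Klrb1f and Klrb1c, a pair of NKR-P1 receptors, share a run of only 16 bases. The stretch printed lies across exons 4 and 5 of Klrb1f (chr6:129053836-129053866 and chr6:129054256-129054280, plus strand) and exons 4 and 5 of Klrb1c (chr6:128784105-128784135 and chr6:128783755-128783779, minus strand).
Klrb1f: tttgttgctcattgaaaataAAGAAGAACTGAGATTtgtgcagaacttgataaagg
Klrb1c: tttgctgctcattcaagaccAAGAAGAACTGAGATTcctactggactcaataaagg
Klrc1 and its neighbour Klrc2 share a run of 100 bases at the end of the coding sequence, which in Klrc1 lies in exon 6 alone (chr6:129674862-129674961). The stretch printed reaches into exon 5 (Klrc1 at chr6:129675300-129675304 and chr6:129674862-129674976, Klrc2 at chr6:129656812-129656816 and chr6:129656374-129656488, minus strand).
Klrc1: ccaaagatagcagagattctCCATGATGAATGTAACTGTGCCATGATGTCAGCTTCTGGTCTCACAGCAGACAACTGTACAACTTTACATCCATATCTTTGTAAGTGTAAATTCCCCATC
Klrc2: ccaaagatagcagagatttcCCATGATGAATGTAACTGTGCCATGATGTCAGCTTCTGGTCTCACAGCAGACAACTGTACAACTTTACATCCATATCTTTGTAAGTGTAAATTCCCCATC
The ligand genes Clec2i and Clec2d share a run of 58 bases, which in Clec2i lies in exon 4 alone (chr6:128893683-128893740). The stretch printed covers parts of Clec2i exons 4 and 5 and Clec2d exons 2 and 3 (Clec2i at chr6:128893663-128893741 and chr6:128894669-128894687, Clec2d at chr6:129183139-129183217 and chr6:129184135-129184153, plus strand).
Clec2i: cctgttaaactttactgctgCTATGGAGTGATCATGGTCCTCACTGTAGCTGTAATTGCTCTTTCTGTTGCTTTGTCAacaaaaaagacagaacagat
Clec2d: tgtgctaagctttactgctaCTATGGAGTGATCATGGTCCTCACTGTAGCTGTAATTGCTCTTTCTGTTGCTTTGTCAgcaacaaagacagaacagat

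Longer runs than that of Klrb1f and Klrb1c join Klrb1c to Klrb1a (108 bases) and to Klrb1b (75 bases), and are not printed. Over whole transcripts, 0% of the stretches of 50 bases in Klrb1f, Klrg1, Klrd1 and Klrk1 occur in another gene, against 1.98% in Clec2d and 4.13% in Clec2i. The share is 17.0% in Klrb1c, with Gm44511, Klrb1a, Klrb1b and Klrb1-ps1, and Gm44511 also covers 13.9% of its exon bases. In Klrc1 it is 38.6%, with Klrc2 and Klrc3. Reads of Klrb1c and Klrc1 may therefore have been split between copies or left out, depending on how they were counted, and their values are uncertain in that sense.

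All 8 genes are protein coding and lie on chromosome 6. From the first base of Klrb1c to the last of Klrc1, 7 of them fit into 900 kb, at chr6:128778485-128789215 for Klrb1c, chr6:128887588-128898167 for Clec2i, chr6:129045901-129057464 for Klrb1f, chr6:129180615-129186534 for Clec2d, chr6:129591782-129598775 for Klrd1, chr6:129610323-129623864 for Klrk1 and chr6:129666015-129678973 for Klrc1. Klrb1f starts 148 kb after the end of Clec2i. Klrg1, at chr6:122270596-122282882, lies 6326 kb before the first Klrb1 gene, outside the cluster.

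The 7 libraries held between 11607780 and 47261246 reads assigned to genes, and CCR6+ replicate 2 stood apart. It was the shallowest and yet listed 2.16% of genes at 0, while the other 6 listed 6.89% to 29.7%, and it was the highest library for 43.6% of the 14582 genes kept and the lowest for 22.8%. The sorted marker Ccr6 stood at 7309, 2750 and 6406 in CCR6+ libraries and between 271 and 909 in CCR6- libraries. Foxp3 was present in all libraries, at 50875, 12206 and 37258 in CCR6+ and 19376 to 39097 in CCR6-. Summed levels of 14 lung epithelial markers ran from 4303 to 81644 in CCR6+ and from 2167 to 10730 in CCR6- libraries, those of 14 endothelial and stromal markers from 6632 to 74601 in CCR6+ and from 5612 to 8923 in CCR6- libraries, and those of 14 macrophage and dendritic markers from 16737 to 148834 in CCR6+ and from 4187 to 22811 in CCR6- libraries, with CCR6+ replicate 2 highest each time. Each value for the 8 genes is therefore also given without that library.

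Of the 8 genes, 2 (Klrb1f and Klrk1) were higher in every CCR6+ library than in any CCR6- library, 1 (Clec2i) was lower in every one, and 5 overlapped between the groups. Over all genes kept, 7.96% did not overlap with higher values in CCR6+ and 5.53% with lower values, and since this contrast chose the genes, nothing is read from the counts. The same 3 genes did not overlap without CCR6+ replicate 2, when the shares over all genes were 10.5% and 8.62%. No gene of the 14582 passed limma's adjusted threshold of 0.05 (0%), while 8.22% were higher and 2.35% lower at an unadjusted p under 0.05. The median log2 difference over all genes was 0.10, and 0.04 without that library. Log2 differences are CCR6+ minus CCR6- on the log2(normalised read count + 1) scale, with limma's standard error (SE), and they understate the change of low genes.

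**Figure D1:**
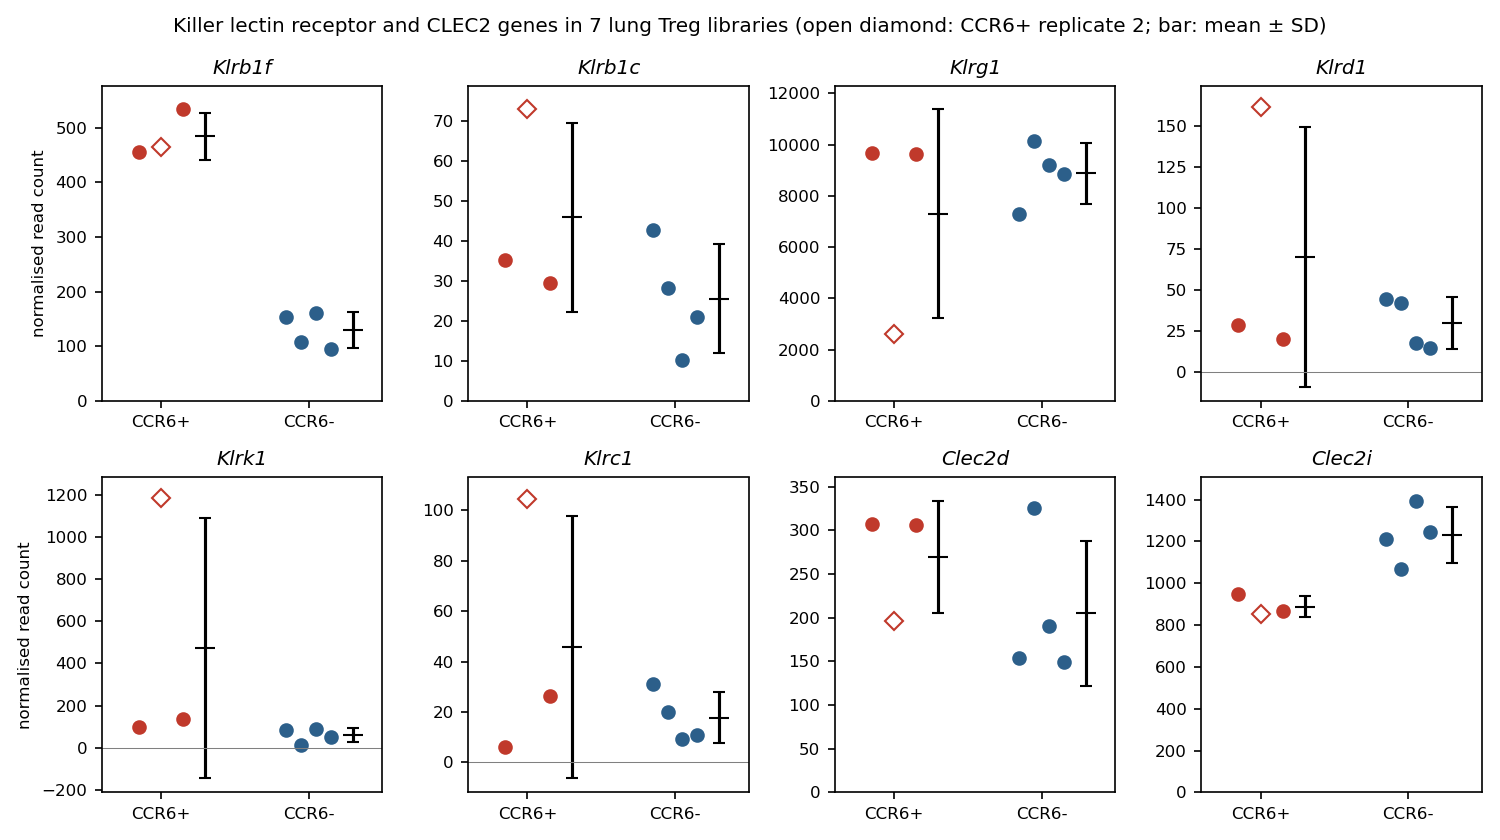
Normalised read counts of the 8 genes (y axis, linear, 1 panel per gene) in 3 CCR6+ and 4 CCR6- libraries. Points are libraries, the open diamond is CCR6+ replicate 2, and bars give mean ± SD. Klrb1f stands at 455 to 534 in CCR6+ libraries against 95.4 to 162 in CCR6- libraries, whereas Klrk1, Klrd1 and Klrc1 are led by the diamond.

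Klrb1f encodes NKR-P1F, a receptor for which a known ligand in mice is the product of Clec2i. It had normalised read counts of 455, 464 and 534 in CCR6+ libraries, against 154, 108, 162 and 95.4 in CCR6- libraries. The groups were far apart, and the lowest CCR6+ library exceeded the highest CCR6- library. The means were 484 ± 43.1 in CCR6+ and 130 ± 33.1 in CCR6- (SD, n = 3 and n = 4), a ratio of 3.73, with a log2 difference of 1.92 (SE 0.24). CCR6+ replicate 2 lay between the other CCR6+ libraries, and without it the difference was 1.95 (SE 0.29). The summed level of 9 measured gamma-delta T, NKT and innate lymphoid markers did not overlap either, at 17872 to 30598 in CCR6+ and 7020 to 15316 in CCR6- libraries, and its part in the difference of Klrb1f was not tested. The values rest on 204 to 530 reads in CCR6+ and 130 to 176 reads in CCR6- libraries.

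Clec2i encodes Clr-g, that ligand, and went the other way. Its normalised read counts were 947, 851 and 868 in CCR6+ libraries, against 1211, 1067, 1394 and 1246 in CCR6- libraries. Every CCR6+ library was below every CCR6- library, by a margin that is small next to that of Klrb1f. The means were 888 ± 51.2 in CCR6+ and 1229 ± 134 in CCR6- (SD, n = 3 and n = 4), and the log2 difference was -0.46 (SE 0.16), or -0.43 (SE 0.18) without CCR6+ replicate 2. Receptor and ligand transcripts were thus both present in each sorted fraction, in unequal proportion. Per kilobase of merged exon, Klrb1f reached 0.739, 0.838 and 0.945 of the level of Clec2i in CCR6+ libraries, against 0.196, 0.155, 0.178 and 0.118 in CCR6- libraries.

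**Figure D2:**
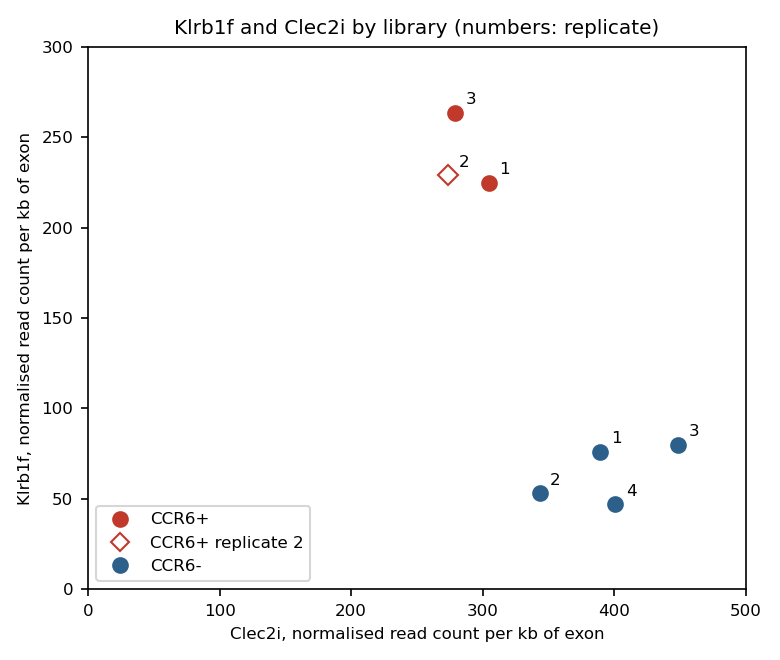
Normalised read count per kilobase of merged exon of Clec2i (x axis) and Klrb1f (y axis) in each library, with replicate numbers beside the points. CCR6+ libraries, with replicate 2 as an open diamond, sit at upper left and CCR6- libraries at lower right, with the ratio of Klrb1f to Clec2i between 0.739 and 0.945 in CCR6+ and between 0.118 and 0.196 in CCR6- libraries.

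Clec2d encodes Clr-b, a widely expressed ligand of the inhibitory receptor NKR-P1B. It had 308, 196 and 306 normalised read counts in CCR6+ libraries, against 154, 326, 190 and 149 in CCR6- libraries. The groups overlapped, with CCR6- replicate 2 the highest of all 7. The log2 difference was 0.44 (SE 0.34), 0.66 (SE 0.37) without CCR6+ replicate 2, and -0.67 under quantile normalization. Its receptor gene Klrb1b, which was not chosen, stood at 2.58, 466 and 82.2 in CCR6+ libraries and at 18.0, 3.31, 31.3 and 1.35 in CCR6- libraries, with an adjusted p of 0.566 in limma.

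Klrb1c encodes NK1.1, an activating receptor and a standard surface marker of NK cells in some strains. Its normalised read counts were low, at 35.2, 72.8 and 29.4 in CCR6+ libraries and 42.6, 28.2, 10.1 and 21.0 in CCR6- libraries, from 11 to 45 reads each. The groups overlapped. The log2 difference of 0.88 (SE 0.54) was 0.49 (SE 0.56) without CCR6+ replicate 2, the highest library, and -1.03 under quantile normalization.

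Klrg1, an inhibitory receptor that binds classical cadherins, had by far the highest level of the 8 per kilobase of exon. Its normalised read counts were 9660, 2611 and 9647 in CCR6+ libraries, against 7280, 10137, 9216 and 8858 in CCR6- libraries. The groups overlapped, and CCR6+ replicate 2 stood alone at 0.277 of the median of the other 6 libraries. The direction of the log2 difference turned with that library, from -0.50 (SE 0.50) with it to 0.13 (SE 0.20) without it. In both fractions its level per kilobase lay above those of most genes kept with a known length, 98.9% of 14167 in CCR6+ and 99.0% in CCR6-. CCR6+ replicate 2 was also lowest in the summed Treg and T cell identity list (8 genes), at 98795 against 233606 and 273236 in the other CCR6+ libraries and 160604 to 211139 in CCR6- libraries. In bulk samples fewer cells of a type and less RNA per cell cannot be told apart.

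Klrk1 encodes NKG2D, an activating receptor for stress-induced ligands that signals through the adaptor DAP10. It had 95.4, 1190 and 136 normalised read counts in CCR6+ libraries, against 84.2, 13.3, 88.3 and 52.1 in CCR6- libraries. The groups did not overlap, but CCR6+ replicate 2 was 13.8 times the median of the other 6 libraries. The mean in CCR6+ was 7.97 times that in CCR6-, and 1.95 times without that library. The log2 difference was 2.35 (SE 1.07) with it and 1.23 (SE 0.82) without it. The nearest libraries of the groups, 95.4 from 111 reads in CCR6+ and 88.3 from 96 reads in CCR6-, had 95% exact Poisson intervals of 78.4 to 115 and of 71.5 to 108, which overlap and cover counting error only.

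Klrd1 encodes CD94, which pairs with the inhibitory chain NKG2A, the product of Klrc1, to bind the nonclassical MHC molecule Qa-1. Klrd1 had 28.4, 161.5 and 20.3 normalised read counts in CCR6+ libraries, against 44.5, 42.3, 17.5 and 14.2 in CCR6- libraries. Klrc1 had 6.01, 104.6 and 26.4 in CCR6+ libraries, against 31.2, 19.9, 9.20 and 10.8 in CCR6- libraries. For both partners the groups overlapped, and CCR6+ replicate 2 was the highest, at 6.64 and 6.81 times the median of the other libraries. The log2 difference of Klrd1 was 0.78 (SE 0.81), -0.12 (SE 0.56) without that library and -1.16 under quantile normalization. That of Klrc1 was 0.69 (SE 0.94), -0.28 (SE 0.73) without it and -1.15 under quantile normalization. Outside that library, Klrd1 rested on 19 to 51 reads and Klrc1 on 7 to 33 reads.

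**Figure D3:**
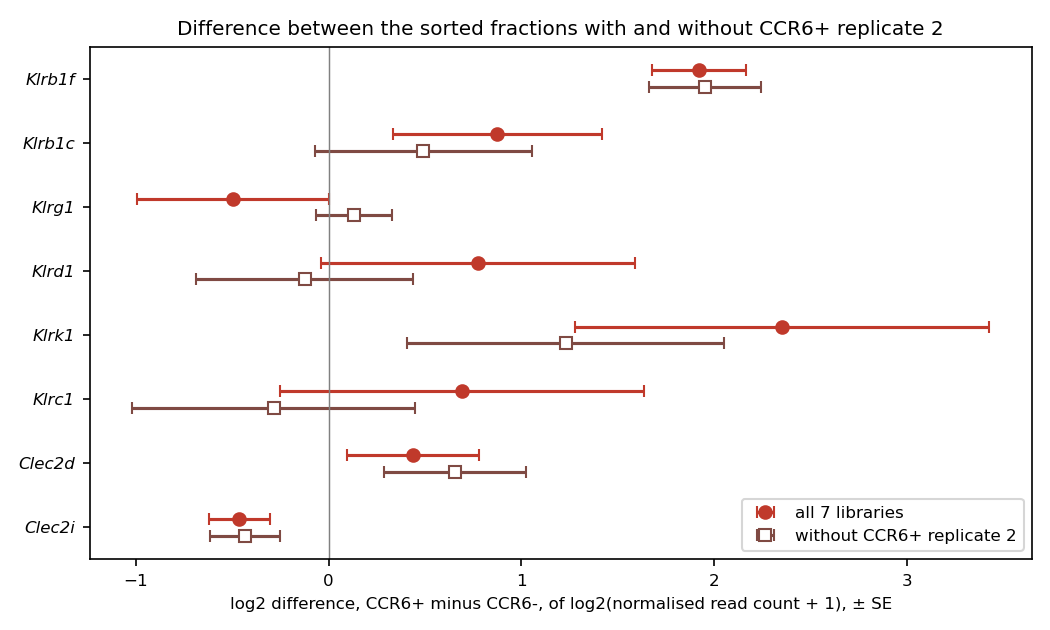
Log2 difference, CCR6+ minus CCR6-, of log2(normalised read count + 1) for the 8 genes, with SE, over all 7 libraries (filled circles) and without CCR6+ replicate 2 (open squares). Klrb1f (1.92 and 1.95) and Clec2i (-0.46 and -0.43) differ little between both, while Klrg1, Klrd1 and Klrc1 cross 0.

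CCR6+ replicate 2 was the highest library for Klrk1, Klrd1, Klrc1 and Klrb1c, 4 of the 8 genes (50%), beside 43.6% of all genes kept. The share of the 8 genes is thus near that of all genes. The same library was also high in several lists of other cell types. Of 17 NK cell markers, which include Klre1 and Klri2 of the receptor list below, 13 were tested, 10 had a positive log2 difference (4 under quantile normalization), and the summed level was 6598, 12161 and 5320 in CCR6+ libraries and 5630 to 7329 in CCR6- libraries. Without CCR6+ replicate 2, 6 were positive and 7 negative. The largest part of the sum in that library was Irf8, at 3618, 6922 and 2496 in CCR6+ and 2275 to 3230 in CCR6- libraries. That library was the highest for Ncr1 and Eomes, but not for Gzma (1126, 864 and 799 in CCR6+, 585 to 1869 in CCR6-). Nor was it the highest for Nkg7 (367, 641 and 788 in CCR6+, 843 to 1748 in CCR6-). The defining NK markers were not at 0: Ncr1, an activating NK receptor, stood at 107, 414 and 110 in CCR6+ and at 57.9 to 217 in CCR6-, and Eomes, a transcription factor of NK and CD8 T cells, at 42.1, 364 and 135 in CCR6+ and at 225 to 351 in CCR6-. The list of gamma-delta T, NKT and innate lymphoid markers had all 9 tested genes positive, among them Maf and Il1rl1, which Treg cells also express. All 6 CD8 T cell markers were negative (5 with equal library totals), with sums of 2891 to 5446 in CCR6+ and 4273 to 7066 in CCR6-. Gzmb made up the largest part of these sums, at 1870 to 4729 in CCR6+ and 3116 to 5311 in CCR6-. The log2 difference was -1.05 for Cd8a and -0.24 for Cd8b1, and -0.75 and -0.02 without CCR6+ replicate 2. All 9 B cell markers were positive, with sums of 1518 to 6649 in CCR6+ and 595 to 3843 in CCR6-. Without CCR6+ replicate 2, all 13 tested macrophage and dendritic markers (median 1.33), all 9 B cell markers (1.74) and all 9 gamma-delta T, NKT and innate lymphoid markers (1.61) were still positive, as were 10 of 14 epithelial (1.04) and 10 of 14 endothelial and stromal markers (1.05), and all 6 CD8 T cell markers were still negative (-0.63). Of the defining markers of these lists, Zbtb16 was listed at 0 in 2 CCR6- libraries and no other was at 0 in any library. The part of these cells in the values of the receptors was not tested.

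**Figure D4:**
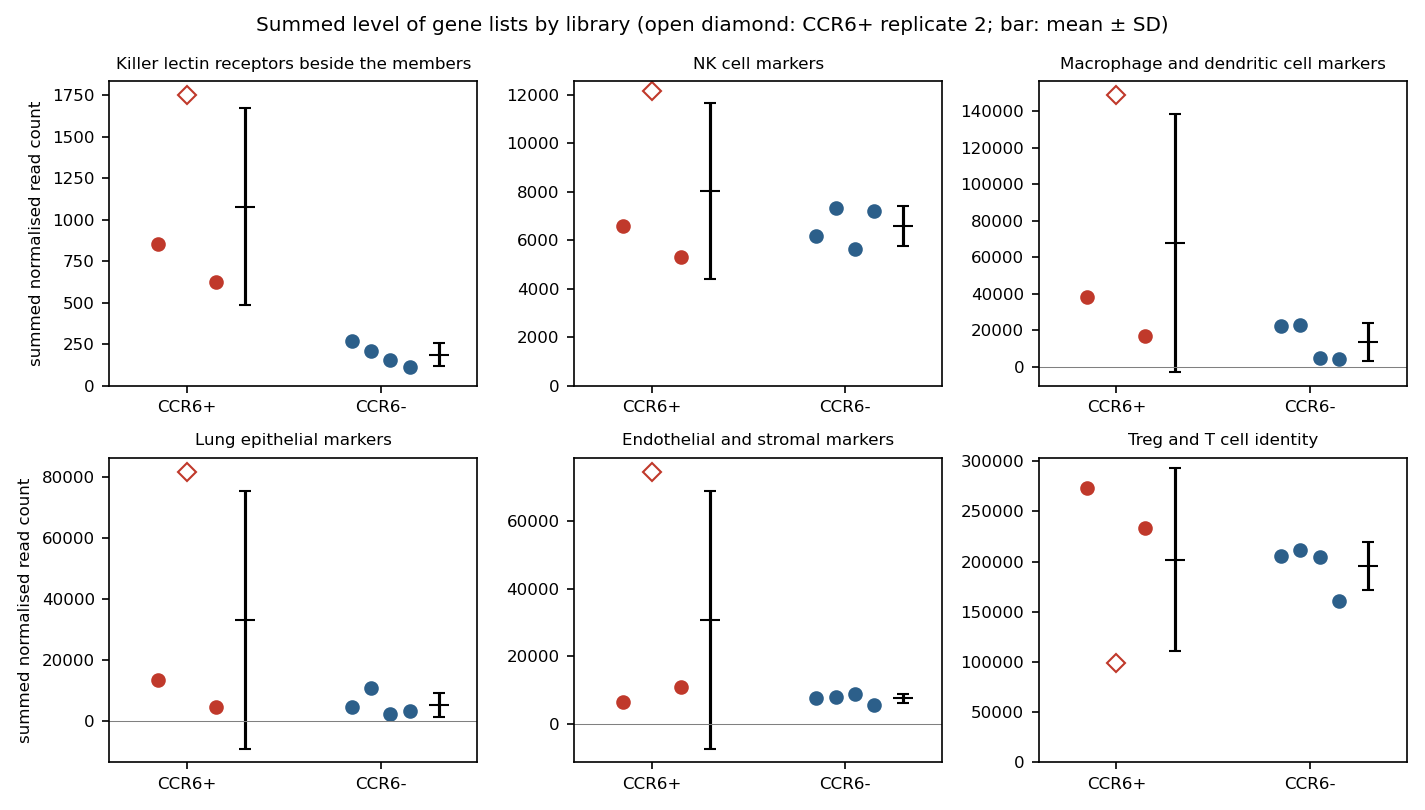
Summed normalised read counts of 6 gene lists (y axis, linear, 1 panel per list) in 3 CCR6+ and 4 CCR6- libraries, with mean ± SD and CCR6+ replicate 2 as an open diamond. Receptors outside the 8 genes stand at 627 to 1749 in CCR6+ and 112 to 272 in CCR6- libraries, and the diamond is highest in every panel except Treg and T cell identity.

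Levels of different genes were compared per kilobase of merged exon. In CCR6+ cells the order of means was Klrg1 (5167), Clec2i (286), Klrb1f (239), Clec2d (222), Klrk1 (65.9), Klrd1 (54.7), Klrc1 (23.02) and Klrb1c (15.5). Only the first 2 steps, from Klrg1 to Clec2i and from Clec2i to Klrb1f, separated the library ranges. In CCR6- cells the order was Klrg1 (6275), Clec2i (395), Clec2d (169), Klrb1f (64.1), Klrd1 (23.1), Klrc1 (8.96), Klrb1c (8.60) and Klrk1 (8.28). There the first 4 steps separated the ranges and the last 3 did not. Without CCR6+ replicate 2, Clec2d (253) and Klrb1f (244) exchanged places in CCR6+ with overlapping ranges. Klrk1 then stood at 16.1, Klrd1 at 19.0 and Klrc1 at 8.17, so that Klrd1 came before Klrk1 and Klrb1c (10.9) before Klrc1, in both cases with overlapping ranges.

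Of the receptor genes of the same families outside the 8, 22 were listed, 18 were found and 11 were tested. All 11 had a positive log2 difference, with a median of 2.01, beside 56.9% of all genes kept, but under quantile normalization only 6 were positive (median 0.13). Without CCR6+ replicate 2, 9 of 11 were positive with a median of 0.96, beside 53.6% of all genes. None passed the adjusted threshold in limma or edgeR. DESeq2 called 1 (Klrg2), beside 530 higher and 134 lower of all 14582 genes. Those that did not overlap were 3 (Klrg2, Klrb1a and Klri2), all higher in CCR6+, beside 7.96% of all genes. At an unadjusted p under 0.05 they were also 3, beside 8.22% of all genes.

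Klrg2, a lectin-like receptor gene of the Klrg type far from the cluster, had 550, 189 and 395 normalised read counts in CCR6+ libraries, against 31.2, 64.6, 53.3 and 73.1 in CCR6- libraries. Its lowest CCR6+ value was in replicate 2, which was the highest CCR6+ library for the other 10 tested receptors. The log2 difference was 2.68 (SE 0.46, limma adjusted p = 0.302), and 3.11 without that library (limma adjusted p = 0.287). DESeq2 on the recovered reads gave an adjusted p of 0.000202 and edgeR 0.249. Klrb1a, an activating NKR-P1 receptor gene, stood at 15.5, 25.0 and 17.3 in CCR6+ libraries and at 11.3, 5.80, 1.84 and 4.74 in CCR6- libraries (log2 difference 1.71, limma adjusted p = 0.439). The values rest on only 18, 11 and 17 reads in CCR6+ and 12, 7, 2 and 7 reads in CCR6- libraries. Under quantile normalization the difference of Klrb1a was -0.485. Klri2 stood at 42.1, 114 and 25.4 in CCR6+ libraries and at 14.2, 0, 11.0 and 2.03 in CCR6- libraries (log2 difference 3.39, limma adjusted p = 0.444). Its reads were 49, 50 and 25 in CCR6+ and 15, 0, 12 and 3 in CCR6- libraries. Klra2, a member of the Ly49 receptors, overlapped between the groups, at 163, 353 and 11.2 in CCR6+ libraries and 49.2, 56.3, 5.52 and 0.677 in CCR6- libraries. Its reads were 190, 155 and 11 in CCR6+ and 52, 68, 6 and 1 in CCR6- libraries.

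**Figure D5:**
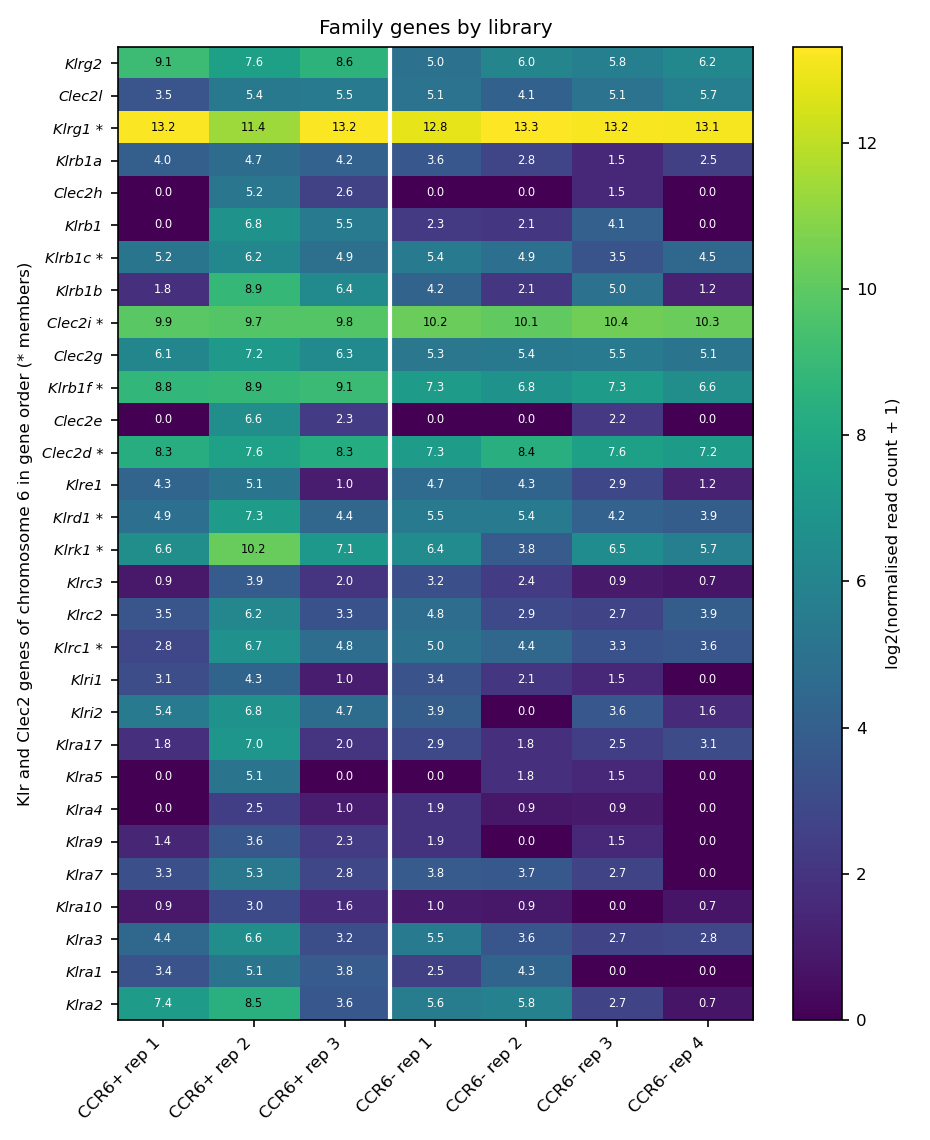
Log2(normalised read count + 1) of 30 Klr and Clec2 genes of chromosome 6, from top to bottom in gene order, in 3 CCR6+ and 4 CCR6- libraries, with an asterisk at the 8 genes. Klrg1 and Clec2i are high in all libraries, and CCR6+ replicate 2 is the highest library in every Klra gene.

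Of 7 further genes of the CLEC2 list, which includes Cd69, 3 were tested. Of these 1, Clec2g, did not overlap and was higher in CCR6+, beside 7.96% of all genes. Clec2g encodes a further CLEC2 lectin and lies between Clec2i and Klrb1f, and had 67.9, 146 and 79.2 normalised read counts in CCR6+ libraries, against 37.8, 40.6, 43.2 and 33.8 in CCR6- libraries. All CCR6+ libraries were higher. The log2 difference was 1.23 (SE 0.29, limma adjusted p = 0.398), and 0.90 without CCR6+ replicate 2. Its sign was opposite to that of Clec2i (-0.46), which shares a run of 47 bases with it. Under quantile normalization, however, the difference of Clec2g was -0.52. Cd69, an early activation receptor, did not pass the test, with a log2 difference of -0.06.

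Among ligands of the receptors outside CLEC2, 12 were listed and 9 tested, of which 8 had a positive and 1 a negative difference, with a median of 0.28, against 4 positive and a median of -0.90 under quantile normalization. None passed the adjusted threshold in limma, and 1 (Cdh1) was higher at an unadjusted p under 0.05, beside 8.22% of all genes. H2-T23, which encodes Qa-1, stood at 23888, 14429 and 22005 in CCR6+ libraries and at 19387, 21013, 20400 and 15983 in CCR6- libraries, and its log2 difference of 0.04 (limma adjusted p = 0.939) changed sign with the scaling. Cdh1, which encodes E-cadherin, a ligand of KLRG1, stood at 491, 2539 and 220 in CCR6+ libraries and at 153, 222, 109 and 108 in CCR6- libraries. The highest was CCR6+ replicate 2, the log2 difference was 2.20 (SE 0.83, limma adjusted p = 0.463), and 1.21 without that library. DESeq2 gave Cdh1 an adjusted p of 0.0102 and edgeR 0.314. Cdh1 also belongs to the epithelial list given above.

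Of 12 adaptors and signalling partners, 4 had a positive and 8 a negative difference, with a median of -0.10, against 7 positive and a median of 0.04 under quantile normalization. None passed the adjusted threshold in limma, edgeR or DESeq2, and 0 had an unadjusted limma p under 0.05, beside 10.6% of all genes. Ptpn6, which encodes the inhibitory phosphatase SHP-1, was lower in every CCR6+ library, at 5961, 6099 and 4844 against 7421, 7395, 6499 and 10913 in CCR6- libraries (log2 difference -0.49, limma adjusted p = 0.484), but the groups overlapped with equal library totals. Hcst, which encodes DAP10, the adaptor of NKG2D, overlapped, at 235, 193 and 311 in CCR6+ libraries and 226, 475, 276 and 253 in CCR6- libraries. Tyrobp (DAP12), an adaptor of several activating receptors, stood at 199, 1024 and 116 in CCR6+ and at 104, 163, 34.9 and 27.1 in CCR6- libraries. Fcer1g, an adaptor of NK1.1, stood at 247, 919 and 153 in CCR6+ and at 123, 200, 36.8 and 26.4 in CCR6- libraries. Tyrobp and Fcer1g were both highest in CCR6+ replicate 2. That library also had the highest sums of macrophage, B cell, NK, epithelial and stromal markers, the NK sum with Irf8 as its largest part. The part of such cells in these values was not tested.

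The list of 16 effector and tissue Treg genes described with Klrg1 had 10 positive and 6 negative differences, with a median of 0.28. Of the 16 genes 2 did not overlap, Pdcd1 and Cd44, both higher in CCR6+, beside 7.96% of all genes. Without CCR6+ replicate 2, all 16 were positive with a median of 0.67, 8 did not overlap, and 5 had a higher value at an unadjusted p under 0.05, beside 10.5% and 4.57% of all genes (2.32% were lower). None passed limma's adjusted threshold with or without that library. With all libraries 0 had an unadjusted p under 0.05, beside 10.6% of all genes. Itgae, the CD103 integrin chain that binds E-cadherin, stood at 23786, 7477 and 20537 in CCR6+ libraries and at 7753 to 10844 in CCR6- libraries, with a log2 difference of 0.73 (SE 0.43), and 1.25 without CCR6+ replicate 2. Areg, an epidermal growth factor receptor ligand made by tissue Treg cells, stood at 1410, 532 and 1092 in CCR6+ libraries and at 399 to 748 in CCR6- libraries, with 0.87 (SE 0.41). Pdcd1, the inhibitory receptor PD-1, stood at 3773, 4135 and 4247 in CCR6+ libraries and at 2343 to 3522 in CCR6- libraries, with 0.42 (SE 0.20). Without CCR6+ replicate 2 the 8 Treg and T cell identity genes were also all positive, with a median of 0.28, and 3 of them (Il2ra, Ikzf2 and Ctla4) belong to both lists.

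By pattern, as the root mean square difference of log2(normalised read count + 1) over 7 libraries after centring, the genes closest to Klrb1f among 11950 candidates were Magi1 (0.23), Rab11fip5 (0.23) and Ctsl (0.25). Those closest to Clec2i were S1pr1 (0.07), Rps18 (0.08) and Nufip2 (0.09), and those closest to Klrg1 were Cd27 (0.20), Tnfrsf18 (0.20) and Rrad (0.23). Klrd1 was closest to Snx8 (0.29), Klrc1 to Dpt (0.39), Klrk1 to Adgra2 (0.45) and Clec2d to Smco4 (0.15). Klrk1 had the loosest closest gene of the 8. Among the 8 genes themselves, Klrg1 and Clec2i were the closest pair, at 0.59. Their groups differed, however, with Clec2i lower in every CCR6+ library and Klrg1 overlapping. The distance is also small where genes vary little, so it does not by itself show a shared pattern.

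The 250 bases before the start site are shown for the receptor and ligand pair Klrb1f and Clec2i, and for Clec2d, which held most matches. They are taken from RefSeq on GRCm38.p6 for 6 of the 8 genes, on the gene's strand, 5′ to 3′. A set of 4 short motifs was searched on both strands: AGGTCA, a core of nuclear receptor sites, TGTGGT of Runx factors, TGANTCA of AP-1 and AGATAA of GATA factors, held by 14.0%, 14.0%, 6.75% and 9.99% of 32817 promoters of that length. Matches are in capitals, on either strand. No pair of matches overlapped. A match says only that these letters are there.
Klrb1f, chr6:129045651-129045900, plus strand: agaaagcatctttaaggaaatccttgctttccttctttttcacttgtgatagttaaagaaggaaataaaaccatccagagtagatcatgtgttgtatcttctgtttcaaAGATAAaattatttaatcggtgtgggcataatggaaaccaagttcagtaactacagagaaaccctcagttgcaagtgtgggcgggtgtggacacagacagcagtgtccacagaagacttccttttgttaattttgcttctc
Clec2i, chr6:128887337-128887586, plus strand: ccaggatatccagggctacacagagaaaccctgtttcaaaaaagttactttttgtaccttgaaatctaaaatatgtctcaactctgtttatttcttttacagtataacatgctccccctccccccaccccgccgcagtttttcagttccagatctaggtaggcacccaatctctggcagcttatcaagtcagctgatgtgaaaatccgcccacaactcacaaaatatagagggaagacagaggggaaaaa
Clec2d, chr6:129180365-129180614, plus strand: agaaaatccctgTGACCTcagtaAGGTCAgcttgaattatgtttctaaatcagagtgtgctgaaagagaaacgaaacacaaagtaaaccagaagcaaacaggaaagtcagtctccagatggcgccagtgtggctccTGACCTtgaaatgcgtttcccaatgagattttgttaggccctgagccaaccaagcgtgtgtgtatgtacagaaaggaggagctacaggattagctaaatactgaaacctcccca
Klrb1f held 1 AGATAA, Clec2d held 3 AGGTCA, and Clec2i held none of the 4 motifs. Klrb1c, Klrk1 and Klrc1 each held 1 TGTGGT.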

How the data were processed

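The 7 libraries were made from total RNA of sorted cells with SMART-Seq v4 and KAPA Hyper Prep kits, per the labels' protocols, which do not say that strand was kept. Each deposited file gives the authors' normalised signal for every symbol, here called the normalised read count. Division by each library's smallest step returned whole reads for 100% of the values, within 0.001 reads, so the values behave as counts scaled by 1 factor per library. The submitters' processing notes list STAR 2.5.1b, HTSeq 0.6.1p1, DESeq2 1.6.3 and mm10, with no role or order; the sources used here give neither annotation nor filters. In the deposited values 1 read is worth between 0.677 and 2.27 units. No pair of libraries agreed within read-counting noise (chi-square per degree of freedom from 26.8 to 249), so none was merged as a repeat deposit of another.

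Genes reaching 10 in 3 or more libraries were tested with limma 3.58.1 (R 4.3.3) on log2(value + 1), two-sided, Benjamini-Hochberg adjusted at 0.05 over 14582 genes, no covariate. Count tests on the recovered reads called 2 genes higher with edgeR 4.0.16, and 530 higher and 134 lower with DESeq2 1.42.0. Alternatives were other pseudocounts, filters and scalings, arrayWeights, a replicate block and each library left out. Positions and exon lengths are from GENCODE M21 on mm10; lengths are merged exons. The 8 genes, the lists and the motifs were chosen with earlier results of these data known. Named genes were the 8, Ccr6, Foxp3, Cd4, per list the 4 of smallest p and the 2 of highest mean, 2 defining markers per cell type list and the 3 nearest patterns per gene, of which some are only counted; Klrb1b, Hcst and Itgae were added after their values were seen. The gene closest in pattern to Klrb1c is not reported here.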

Additional observations from a re-analysis of the deposited data

Results flagged for a closer look

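Among 50 sets of 4 CCR6- values examined, 3 had a library far from the other 3 by Dixon's 95% criterion, where chance gives about 5% of sets. Cdh2, a cadherin, stood at 16.55 normalised read counts in CCR6- replicate 3 and between 0 and 1.892 in the other CCR6- libraries. Lck, the T cell kinase, stood at 97710 in CCR6- replicate 4 and between 44523 and 48334 in the others. Ctla4, an inhibitory receptor of Treg cells, stood at 21780 in CCR6- replicate 4 and between 39979 and 41858 in the others. None of the 8 lectin genes was among them.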

How the results depend on the processing

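Log2 differences below are CCR6+ minus CCR6-. Klrb1f (1.21 to 2.04), Klrk1 (0.99 to 3.04) and Clec2i (-0.56 to -0.38) kept their sign under every alternative run. Klrb1c, Klrd1 and Klrc1 had low mean normalised read counts over all libraries (34.2, 46.9 and 29.7), and a filter at a mean of at least 100 left them out.

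Quantile normalization turned Klrb1c to -1.03, Klrd1 to -1.16, Klrc1 to -1.15, Clec2d to -0.67, Klrb1a to -0.49, Clec2g to -0.52, Raet1e to -1.45, Ncr1 to -0.36, Cd69 to 0.10, Inpp5d to 0.16 and Foxp3 to 0.10. ArrayWeights, whose weights ran from 0.208 (CCR6+ replicate 2) to 24.2 (CCR6+ replicate 3) without converging, turned Klrg1 to 0.18, Klrd1 to -0.42, Klra2 to -0.47, Clec2l to 0.47, Cd69 to 0.088, Lck to 0.088, Ncr1 to -0.056, Pecam1 to -0.10, Foxp3 to 0.063 and Cd4 to -0.013. TMM scaling turned H2-T23 to -0.057 and Cd4 to -0.057, and equal library totals turned Cd69 to 0.031 and Inpp5d to 0.063. EdgeR turned Foxp3 to 0.048 and Cd4 to -0.021, and DESeq2 turned Foxp3 to 0.089. The replicate block turned Clec2l to 0.042, Cd69 to 0.0038, H2-T23 to -0.044, Inpp5d to 0.021 and Cd4 to -0.051. The cause of these changes was not tested.

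Leaving out 1 library at a time gave Klrg1 -0.81 to 0.13, Klrd1 -0.12 to 1.34 and Klrc1 -0.28 to 1.67, each turned by leaving out CCR6+ replicate 2. It gave Clec2l -0.56 to 0.45, Cd69 -0.25 to 0.18, H2-T23 -0.10 to 0.26, Raet1e -0.013 to 0.99, Inpp5d -0.17 to 0.11, Ctla4 -0.090 to 0.75, Ncr1 -0.16 to 0.81, Sftpc -0.20 to 2.35, Pecam1 -0.088 to 0.51, Foxp3 -0.51 to 0.52 and Cd4 -0.075 to 0.20.

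Over all genes, 0 passed the adjusted threshold in either direction, with 1198 higher and 342 lower at an unadjusted p under 0.05. The higher calls were 1 with a pseudocount of 0.5 and with TMM scaling, 2 with a pseudocount of 8, with a mean of at least 100, with quantile normalization and with edgeR, 530 with DESeq2 and 1458 with arrayWeights, and 0 to 1 with a library left out. The lower calls were 2 with quantile normalization, 134 with DESeq2 and 1028 with arrayWeights. Genes that did not overlap were 1160 higher and 806 lower, against 713 higher with a mean of at least 100, 653 higher and 1268 lower with quantile normalization, and 1349 to 3966 higher and 1022 to 1594 lower with a library left out. In the lists beside the 8 genes, 9 higher and 1 lower passed with arrayWeights and 2 higher with DESeq2. There the genes that did not overlap were 6 higher and 1 lower, against 3 higher with a mean of at least 100, 2 higher with quantile normalization and 0 lower with equal library totals, and 6 to 14 higher and 1 to 2 lower with a library left out. The median over all genes was 0.10, against 0.18 with equal library totals, -0.08 with quantile normalization and 0.43 with no filter.

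Deviations from the group means correlated at -0.13, -0.11 and 0.34 between same-numbered libraries. Between libraries of other numbers they ran from -0.76 (CCR6+ replicate 1 with CCR6- replicate 3) to 0.69 (CCR6+ replicate 2 with CCR6- replicate 3). Deviations within a group sum to 0 over only 3 or 4 libraries, so these values cannot decide whether libraries were paired. The replicate block, in which CCR6- replicate 4 drops out, gave 0 calls.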
